A study of Vitis vinifera with 15 samples.

Results

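WRKY genes are a family of plant transcription factors, and 54 grapevine genes listed as its members by identifier were followed in the leaves of 5 graft combinations. The list was taken whole, whether or not a gene differed between the combinations, and all 54 identifiers were found among the 29970 genes with deposited values. The supplementary annotation of the study gives a name to 26 of the 54. These names follow the closest Arabidopsis gene with a running number (WRKY18_1, WRKY18_2), and the other 28 members are given by identifier only. The named members were picked by the study for their behaviour in these same libraries, so that their counts and directions are not independent evidence, and no contrast between named and unnamed members is drawn as a result.

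The leaves came from Vitis vinifera cv. “Gaglioppo”, a red wine variety of southern Italy, grafted on different rootstocks in 1 vineyard. GAG-41B stood on 41B, which is V. vinifera crossed with V. berlandieri. GAG-KOB stood on Kober 5BB (V. riparia × V. berlandieri) and GAG-3309C on 3309 Couderc (V. riparia × V. rupestris). GAG-17-37 stood on 17-37Mgt and GAG-1103P on 1103 Paulsen, both V. rupestris × V. berlandieri, and GAG-1103P served as the common reference. All 5 combinations carried the same scion clone, vine age and management, and the leaves were not inoculated. Each combination was represented by 3 libraries (A, B and C), each made from fully expanded leaves pooled over several vines, so that differences between single vines cannot be seen. The combinations grew in adjacent blocks, so that rootstock and position in the vineyard cannot be told apart. The comparison asks how the rootstock goes with the scion's leaf transcripts.

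WRKY proteins carry a conserved WRKY domain with a zinc finger and bind W-box elements in the promoters of their targets, among them genes of other WRKY factors. In Arabidopsis and other plants many of them are switched on quickly by pathogens, by salicylic acid or by mitogen-activated protein kinase cascades, while others act in leaf senescence, nutrient shortage and development. The family is divided by the number and type of its domains into groups I, II (with subgroups a to e) and III, and the grapevine members are ordered below by the group of the Arabidopsis gene whose name they carry.

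Expression is given in FPKM as deposited, that is, sequenced fragments scaled by exon length and by library, so that levels of different genes can be compared. Tests were made with limma on log2(FPKM + 0.1), and a transcript was called higher or lower at a Benjamini-Hochberg adjusted p of 0.05 or less over the 21364 genes tested. Log2 fold changes are on that scale and understate the change of transcripts with low FPKM. Of the 54 members, 53 passed the filter of a mean of at least 0.1 FPKM over all libraries. Vv16s0050g01480 was listed at 0 in all 15 libraries and was not tested. Vv04s0069g00980 passed through single libraries only, with 1.63, 0.652 and 0 FPKM in GAG-41B and 0, 0.441 and 0 FPKM in GAG-1103P, and it was listed at 0 in the other 9 libraries. Vv15s0046g02150 was under the filter level in GAG-3309C and GAG-17-37 (means of 0.0755 and 0.0908 FPKM). Its GAG-41B libraries were at 0.625, 0.633 and 0.617 FPKM, against 0.328, 0.214 and 0 FPKM in GAG-1103P.

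The libraries were even within a combination. Over the members with a mean of at least 1 FPKM, the median coefficient of variation between the 3 libraries was 7.18% in GAG-41B, 5.07% for GAG-KOB, 7.02% for GAG-3309C, 5.68% in GAG-17-37 and 6.39% in GAG-1103P. Library A stood on the same side of libraries B and C in all 5 combinations for 14 members, lowest for 8 (WRKY40 and WRKY18_2 among them) and highest for 6, against 9.78% and 12.6% of all genes tested. The part of this shared step in the results was checked by a fit with the library letter as a block, which lost none of the members' calls. The FPKM sum was between 2208240 and 2221125 in the GAG-41B libraries and between 1558965 and 1797627 in the other 12. Of 4 photosynthesis genes taken as leaf markers, a PSAF gene (Vv00s0125g00280, photosystem I) was higher in GAG-41B (mean of 972 FPKM, log2 fold change 0.76) than in GAG-1103P (573 FPKM). It was lower than in GAG-1103P in GAG-3309C (365 FPKM, log2 fold change -0.65) and GAG-17-37 (490 FPKM, -0.23). A PsbO gene (Vv00s0207g00210, photosystem II) had 1565 FPKM in GAG-41B and 1681 FPKM in GAG-1103P, and was lower in GAG-KOB (1228 FPKM, -0.45), GAG-3309C (969 FPKM, -0.79) and GAG-17-37 (1396 FPKM, -0.27). The other 2, both LHCB3, were at 2.59 and 2.195 FPKM in GAG-41B and at 0.163 and 0.202 FPKM in GAG-1103P. Both were called higher in GAG-41B (3.36 and 3.18), but at such low levels they say little about the leaf. The part of these marker levels in the results for the WRKY genes was not tested.

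The WRKY share of the leaf transcripts was largest in GAG-41B, and GAG-1103P had the smallest. The FPKM of the 54 members summed to 13819 ± 247 in GAG-41B, 5651 ± 57.2 for GAG-KOB, 4330 ± 100.3 for GAG-3309C, 4010 ± 53.2 in GAG-17-37 and 2845 ± 58.3 in GAG-1103P (SD, n = 3 each). As a share of all FPKM these sums were 0.624%, 0.321%, 0.273%, 0.251% and 0.170% in the same order. The 5 members with the highest mean over all 15 libraries, the same 5 for every combination, held 53.1% of the sum in GAG-41B and 40.4% in GAG-1103P. In leaves, fewer cells of a type with the transcript and less RNA per cell cannot be told apart.

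Members ranged widely in level. Averaged over all libraries, 4 of the tested members were under 1 FPKM, 8 between 1 and 10, 25 between 10 and 100 and 16 above 100 FPKM. The median member had 68.9 FPKM in GAG-41B, 32.2 for GAG-KOB, 36.2 for GAG-3309C, 29.4 in GAG-17-37 and 23.1 in GAG-1103P, while the median of all genes tested lay between 12.6 and 13.5 FPKM in every combination. The most abundant member changed with the combination. WRKY18_2 led in GAG-41B with a mean of 2043 FPKM, followed by WRKY40 (1807) and WRKY75_1 (1612 FPKM). WRKY75_1 led in GAG-KOB (679 FPKM), GAG-3309C (522 FPKM) and GAG-17-37 (503 FPKM), and Vv06s0004g07500 led in GAG-1103P, with 333 FPKM. The lowest of those tested was Vv04s0069g00980, with 0.182 FPKM.

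In GAG-41B leaves most of the family stood higher than in GAG-1103P leaves. Of the 53 members, 38 were called higher, 9 lower and 6 neither, which is 88.7% called against 68.8% of all genes tested (34.4% higher and 34.4% lower). A change of at least 4-fold was reached by 24 members upwards and by WRKY21_1 downwards, against 8.75% and 4.79% of all genes. The median log2 fold change was 1.76 over the members and 0 over all genes. With the libraries scaled to the same FPKM total, which moved the median of all genes to -0.38, the split was 32 higher and 15 lower (23.0% and 49.3% of all genes), and with quantile normalization 36 and 11 (29.9% and 39.1%). Every GAG-41B library was above every GAG-1103P library for 38 members (36.3% of all genes) and below every one for 9 (35.9%).

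The remaining combinations followed with smaller steps. GAG-KOB had 37 members higher and 5 lower than GAG-1103P (79.2% called against 52.6% of all genes, 26.9% higher and 25.7% lower). At least 4-fold higher in GAG-KOB were 9 members (17.0%), while 3.49% of all genes changed by 4-fold in either direction. The median log2 fold change of its members was 0.86. GAG-3309C had 31 higher and 6 lower (69.8% against 43.1%, 22.0% higher and 21.1% lower), with a median of 0.33. At least 4-fold higher there were 3 members (5.66%), while 2.25% of all genes changed by 4-fold in either direction. GAG-17-37 had 32 higher and 1 lower (62.3% against 34.3%, 18.6% higher and 15.6% lower), with a median of 0.41. At least 4-fold higher there was 1 member (1.89%), near the 1.54% of all genes that changed by 4-fold in either direction. With the library letter as a block, GAG-41B had 38 higher and 10 lower, and GAG-KOB 37 and 7. GAG-3309C then had 34 and 8, and GAG-17-37 33 and 3. The lower members added in GAG-17-37 were Vv04s0008g06600 (-0.42, adjusted p = 0.0444) and Vv07s0005g01710 (-0.14, adjusted p = 0.0235). The shares of all genes given here are without the block. All 4 comparisons share the GAG-1103P libraries, so that a value of these libraries enters each of them.

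**Figure D1:**
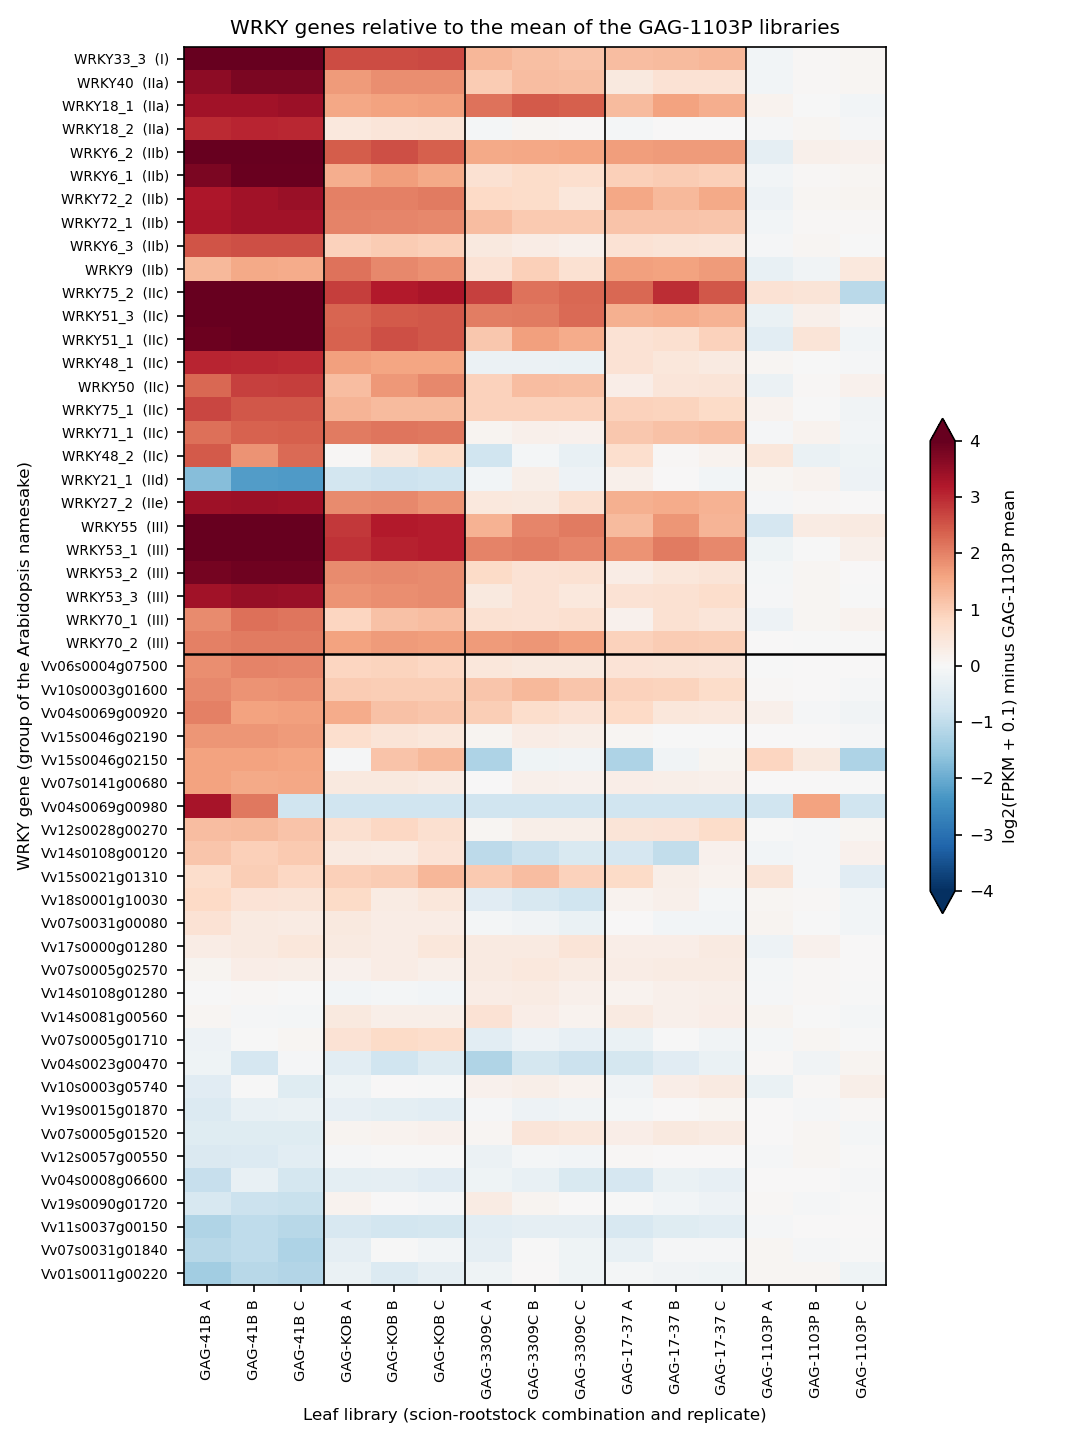
Each row is 1 of the 53 tested WRKY genes and each column 1 of the 15 leaf libraries, and the colour gives log2(FPKM + 0.1) minus the mean of the 3 GAG-1103P libraries, red for higher and blue for lower, cut at 4 in either direction. Rows above the black line are the 26 named members by the group of the Arabidopsis namesake (in parentheses), and in the 3 GAG-41B columns 25 of them are red and WRKY21_1 is blue.

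**Figure D2:**
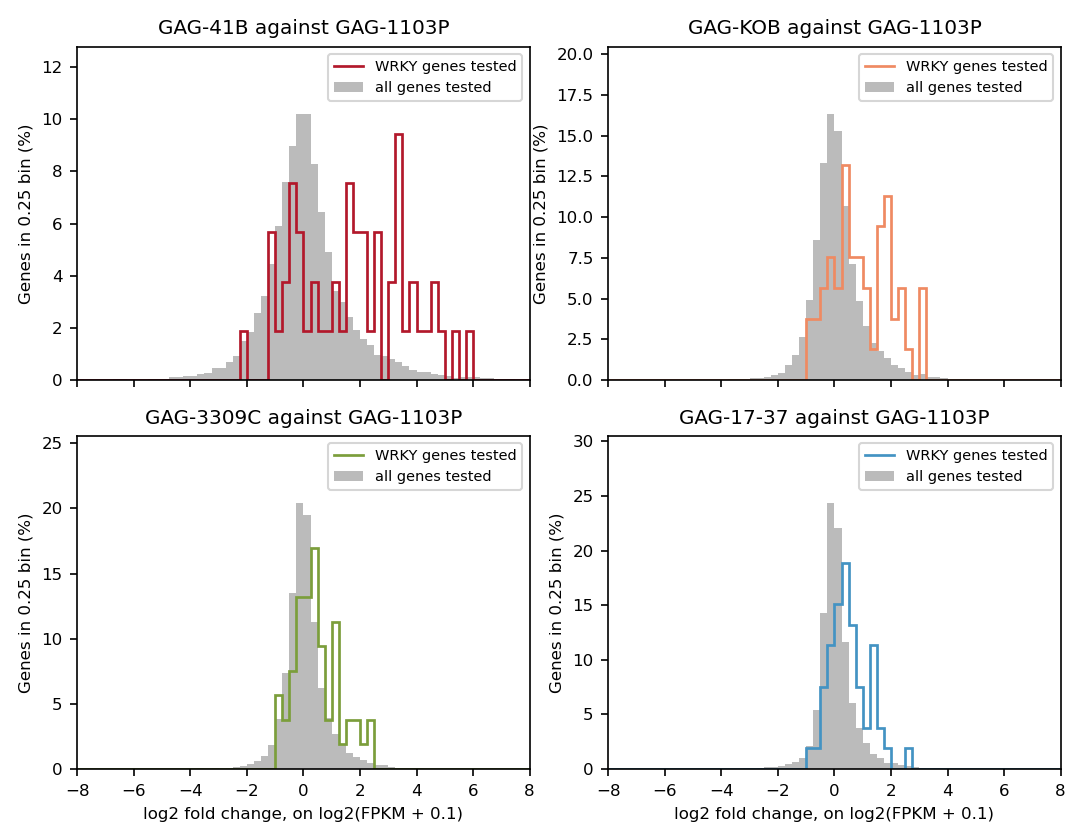
In each panel the grey bars give the share of all 21364 genes tested and the coloured line the share of the 53 tested WRKY genes in bins of 0.25 on the log2 fold change against GAG-1103P. The grey bars centre on 0 in all 4 panels, and the median of the WRKY genes lies at 1.76 for GAG-41B, 0.86 for GAG-KOB, 0.33 for GAG-3309C and 0.41 for GAG-17-37.

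The ends of the order were mostly held by the same combinations. The highest mean FPKM was in GAG-41B for 35 of the 53 members (66.0%, against 36.5% of all genes) and the lowest was in GAG-1103P for 31 (58.5%, against 28.8%). Both held for 27 members (50.9%, against 19.9%), and 24 of these also had GAG-KOB in second place (45.3%, against 13.8%). The opposite order, GAG-1103P highest and GAG-41B lowest, was seen for 4 members (7.55%, against 18.5%). An F-test over the 5 combinations called 51 of the 53 members, against 75.3% of all genes, the exceptions being Vv10s0003g05740 (adjusted p = 0.0587) and Vv04s0069g00980 (adjusted p = 0.101).

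Subgroup IIa holds the pair of members that the study names as VvWRKY18 and VvWRKY40. In Arabidopsis, WRKY18 and WRKY40 act together with WRKY60 as partly redundant repressors of basal defence. WRKY18_2 (VvWRKY18, Vv04s0008g05760) had 1990, 2078 and 2061 FPKM in GAG-41B and 338, 352 and 359 FPKM in GAG-KOB. It had 242, 267 and 262 FPKM in GAG-3309C, 239, 253 and 258 FPKM in GAG-17-37, and 247, 265 and 247 FPKM in GAG-1103P. All GAG-41B libraries were thus far above the rest and the GAG-KOB libraries came next, while those of GAG-3309C, GAG-17-37 and GAG-1103P overlapped. The log2 fold change against GAG-1103P was 3.01 ± 0.05 (SE, adjusted p = 2.74e-14) in GAG-41B and 0.47 ± 0.05 (adjusted p = 5.06e-06) in GAG-KOB. In GAG-3309C it was 0.02 ± 0.05 (adjusted p = 0.785) and in GAG-17-37 it was -0.02 ± 0.05 (adjusted p = 0.832). The value in GAG-17-37 turned to 0.053 with the same FPKM total in every library.

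WRKY40 (Vv09s0018g00240) was graded over all 5 combinations. Its libraries had 1671, 1868 and 1881 FPKM in GAG-41B, 451, 507 and 500 FPKM in GAG-KOB, and 283, 326 and 318 FPKM in GAG-3309C. The values were 180, 209 and 207 FPKM in GAG-17-37 and 128, 143 and 147 FPKM in GAG-1103P. No 2 combinations overlapped, and library A was the lowest in each. The log2 fold changes were 3.70 ± 0.08 in GAG-41B, 1.81 ± 0.08 in GAG-KOB, 1.15 ± 0.08 in GAG-3309C and 0.51 ± 0.08 in GAG-17-37 (adjusted p = 0.000369 for the last). Neighbours in this order also differed, GAG-41B from GAG-KOB by 1.89 (adjusted p = 1.04e-09), GAG-KOB from GAG-3309C by 0.65 (5.16e-05) and GAG-3309C from GAG-17-37 by 0.64 (0.00019).

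WRKY18_1 (Vv04s0008g05750), whose identifier directly precedes that of WRKY18_2 in the annotation, did not share its pattern. It had 81.9, 83.4 and 86.2 FPKM in GAG-41B, 23.6, 24.6 and 25.2 FPKM in GAG-KOB, and 36.1, 43.7 and 42.6 FPKM in GAG-3309C, against 8.74, 7.92 and 7.30 FPKM in GAG-1103P. GAG-3309C stood above GAG-KOB here, with a difference of -0.73 ± 0.09 for GAG-KOB against GAG-3309C (adjusted p = 6.01e-05). In GAG-3309C and GAG-17-37 its log2 fold changes were 2.34 ± 0.09 and 1.45 ± 0.09 against GAG-1103P, where WRKY18_2 had 0.02 and -0.02.

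WRKY33_3 (Vv08s0058g00690) is the only named member of group I. Arabidopsis WRKY33 is a substrate of the kinases MPK3 and MPK6, and it is needed for camalexin synthesis and resistance to the fungus Botrytis. The grapevine transcript had 653, 697 and 675 FPKM in GAG-41B, 157, 160 and 160 FPKM in GAG-KOB, and 24.05, 26.5 and 27.1 FPKM in GAG-1103P. GAG-3309C had 65.5, 60.03 and 57.05 FPKM and GAG-17-37 had 60.9, 61.9 and 64.9 FPKM. The last 2 overlapped with each other (-0.04 ± 0.06, adjusted p = 0.704), and every other pair was apart. Against GAG-1103P the log2 fold change was 4.70 ± 0.06 in GAG-41B (adjusted p = 2.39e-15) and 2.62 ± 0.06 in GAG-KOB.

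**Figure D3:**
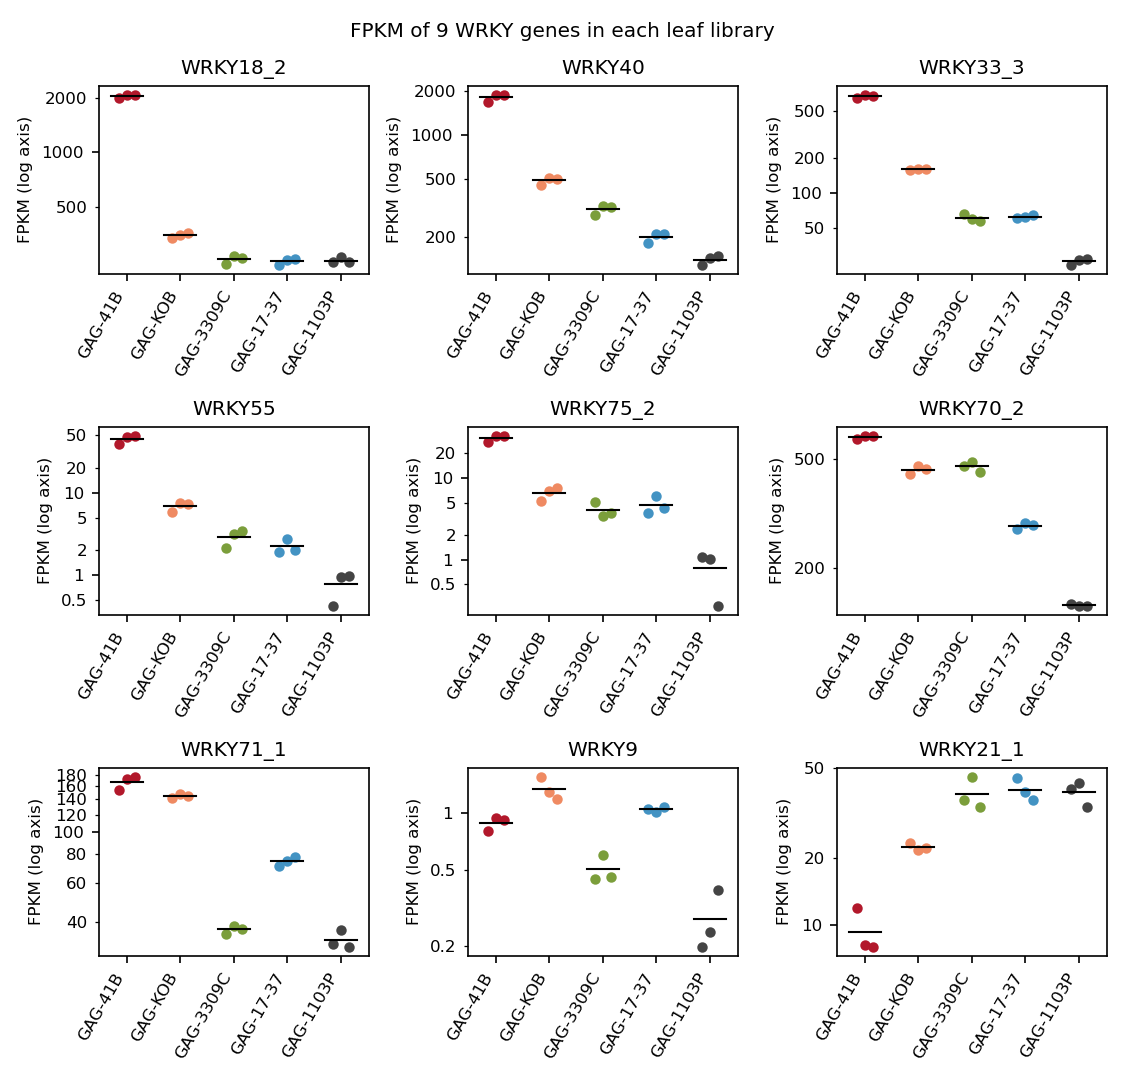
Each panel plots the FPKM of 1 WRKY gene on a log axis for the 5 combinations, with a point for each of the 3 libraries (A, B, C from left to right) and a black line at their mean. WRKY18_2 is high in GAG-41B and somewhat raised in GAG-KOB, WRKY40 is apart in all 5, WRKY9 is highest in GAG-KOB, and WRKY21_1 is lowest in GAG-41B.

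The 6 named members of subgroup IIb were called higher than in GAG-1103P in all 4 comparisons (11.8% of all genes were), 5 of them at least 4-fold in GAG-41B (8.75% of all genes). Here and in the groups that follow, the named members had been selected for large changes in these libraries, so that such counts are a description. In Arabidopsis, WRKY6 acts in senescence and in the response to low phosphate, and WRKY72 in basal defence. WRKY6_1 (Vv10s0116g01200) had 1088, 1231 and 1246 FPKM in GAG-41B, 219, 253 and 227 FPKM in GAG-KOB, and 73.5, 83.3 and 83.7 FPKM in GAG-1103P. It was the most abundant of the 6 in each of these combinations, and its log2 fold change in GAG-41B was 3.89 ± 0.07 (adjusted p = 6.48e-14). WRKY6_2 (Vv19s0090g00840) was far less abundant, with 54.5 ± 4.24 FPKM in GAG-41B and 2.08 ± 0.432 FPKM in GAG-1103P (SD, n = 3 each), but differed more, by 4.67 ± 0.12. WRKY6_3 (Vv12s0059g00880) differed least of the WRKY6 genes, with a log2 fold change of 2.55 ± 0.05 in GAG-41B and 0.29 ± 0.05 in GAG-3309C. WRKY72_1 (Vv01s0026g01730) and WRKY72_2 (Vv17s0000g05810) had nearly equal log2 fold changes in GAG-41B, 3.33 ± 0.06 and 3.34 ± 0.12, from unequal levels of 315 and 21.2 FPKM in that combination.

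WRKY9 (Vv12s0055g00340), the remaining IIb member, departed from the usual order at low FPKM. It had 0.803, 0.942 and 0.919 FPKM in GAG-41B, 1.56, 1.3005 and 1.19 FPKM in GAG-KOB, and 0.452, 0.602 and 0.462 FPKM in GAG-3309C. GAG-17-37 had 1.05, 1.01 and 1.08 FPKM and GAG-1103P 0.197, 0.235 and 0.395 FPKM. The GAG-KOB libraries were above all others, and GAG-41B was lower than GAG-KOB by 0.55 on the log2 scale (-0.55 ± 0.21, adjusted p = 0.0395). All 4 comparisons with GAG-1103P were called, from 0.72 ± 0.21 in GAG-3309C (adjusted p = 0.0131) to 1.98 ± 0.21 in GAG-KOB (3.86e-06). The call in GAG-3309C was lost under quantile normalization.

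Subgroup IIc has 8 named members. In GAG-41B all 8 were at least 4-fold higher than in GAG-1103P (8.75% of all genes), with log2 fold changes between 2.18 and 5.33. The lowest, that of WRKY48_2, was 1.93 with 1 added in place of 0.1. In GAG-KOB 7 were higher (26.9% of all genes) and in GAG-17-37 6 (18.6%). In GAG-3309C 5 were higher and 1 was lower (22.0% and 21.1%). WRKY75_2 (Vv14s0068g01770) was the only WRKY gene at least 4-fold higher in all 4 comparisons. Arabidopsis WRKY75 acts in phosphate starvation and leaf senescence. The transcript had 27.8, 33.1 and 32.7 FPKM in GAG-41B, 5.17, 6.85 and 7.44 FPKM in GAG-KOB, and 5.06, 3.44 and 3.72 FPKM in GAG-3309C. It had 3.74, 5.94 and 4.23 FPKM in GAG-17-37 and 1.06, 1.002 and 0.268 FPKM in GAG-1103P. GAG-1103P was below all others, with library C well under A and B, while GAG-3309C and GAG-17-37 overlapped. The log2 fold change was 5.33 ± 0.36 in GAG-41B, 3.07 ± 0.36 in GAG-KOB, 2.40 ± 0.36 in GAG-3309C and 2.58 ± 0.36 in GAG-17-37, the largest increase of any called member in the last 3. This lead was narrow in GAG-KOB, where WRKY55 had 3.05, and in GAG-3309C, where WRKY18_1 had 2.34. With 1 added in place of 0.1 WRKY53_1 led in GAG-KOB (2.69) and WRKY18_1 in GAG-3309C (2.22), and without GAG-1103P C other members led in all 3. Without GAG-1103P C the value was 1.86 in GAG-3309C and 2.04 in GAG-17-37, and with 1 added in place of 0.1 it was 1.53 and 1.68, under the 4-fold limit. The highest adjusted p of this transcript under any alternative tried was 0.000944.

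WRKY75_1 (Vv01s0010g03930) was the more abundant WRKY75 gene by far. It had 1753, 1547 and 1535 FPKM in GAG-41B and 307, 274 and 252 FPKM in GAG-1103P, a log2 fold change of 2.54 ± 0.07 (adjusted p = 5.62e-12). Its library A was the highest in all 5 combinations, the reverse of WRKY40. WRKY50 (Vv04s0008g01470) and the pair WRKY51_1 (Vv04s0069g00970) and WRKY51_3 (Vv07s0031g01710) carry the names of Arabidopsis genes by which salicylic acid represses jasmonate signalling. WRKY51_3 had 326, 362 and 358 FPKM in GAG-41B, against 14.2, 19.5 and 17.7 FPKM in GAG-1103P (4.35 ± 0.10), and was at least 4-fold higher in GAG-KOB and GAG-3309C too. WRKY51_1 had 55.6, 69.8 and 71.9 FPKM in GAG-41B and 2.69, 5.23 and 3.32 FPKM in GAG-1103P (4.14 ± 0.21). WRKY50 had 109, 146 and 151 FPKM in GAG-41B and 18.8, 22.8 and 24.4 FPKM in GAG-1103P (2.61 ± 0.17). In GAG-17-37 its value of 0.42 ± 0.17 was not called (adjusted p = 0.0833) and was called with the library letter as a block (adjusted p = 0.000466), the GAG-17-37 libraries (26.2, 30.4 and 31.6 FPKM) lying above those of GAG-1103P.

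WRKY48_1 (Vv05s0077g00730) differed in direction between the combinations. In Arabidopsis, WRKY48 is a negative regulator of basal resistance to bacteria. The transcript had 496, 488 and 480 FPKM in GAG-41B, 186, 179 and 180 FPKM in GAG-KOB, 51.5, 51.4 and 49.8 FPKM in GAG-3309C, 89.8, 81.4 and 77.8 FPKM in GAG-17-37, and 63.3, 59.3 and 57.5 FPKM in GAG-1103P. It was higher than in GAG-1103P by 3.02 ± 0.05 in GAG-41B, 1.59 ± 0.05 in GAG-KOB and 0.46 ± 0.05 in GAG-17-37, but lower in GAG-3309C (-0.24 ± 0.05, adjusted p = 0.00287). The lower call in GAG-3309C was lost with the same FPKM total in every library. WRKY48_2 (Vv06s0004g00230) had 19.5, 12.3 and 17.2 FPKM in GAG-41B and 4.73, 2.86 and 3.06 FPKM in GAG-1103P (2.18 ± 0.27), and its libraries overlapped with those of GAG-1103P in the other 3 combinations.

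WRKY71_1 (Vv10s0003g02810), named after an Arabidopsis gene of shoot branching, was the IIc member with GAG-KOB nearest to GAG-41B. It had 154, 173 and 177 FPKM in GAG-41B, 142, 148 and 145 FPKM in GAG-KOB, and 35.7, 38.7 and 37.6 FPKM in GAG-3309C. GAG-17-37 had 70.8, 75.04 and 77.7 FPKM and GAG-1103P 32.1, 37.2 and 31.1 FPKM. GAG-41B exceeded GAG-KOB by 0.21 ± 0.07 (adjusted p = 0.0248), while GAG-3309C and GAG-1103P overlapped (0.16 ± 0.07, adjusted p = 0.0872, and 0.0264 with the library letter as a block).

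The 6 named members of group III were called higher in all 4 comparisons (11.8% of all genes). In GAG-41B each was at least 4-fold higher (8.75%). The call of WRKY70_1 in GAG-17-37 (adjusted p = 0.0303) was lost with the same median in every library. In Arabidopsis, WRKY53 promotes leaf senescence, and WRKY70 stands between salicylic acid and jasmonate signalling. WRKY55 (Vv13s0067g03130) had the largest increase of all members in GAG-41B. Its libraries had 38.7, 47.7 and 49.4 FPKM in GAG-41B, 5.85, 7.48 and 7.33 FPKM in GAG-KOB, and 2.11, 3.17 and 3.43 FPKM in GAG-3309C. GAG-17-37 had 1.90, 2.77 and 2.03 FPKM and GAG-1103P 0.420, 0.952 and 0.968 FPKM. The mean of GAG-41B was 58.0 times that of GAG-1103P, where the transcript was under 1 FPKM in every library. The log2 fold change was 5.75 ± 0.27 in GAG-41B (adjusted p = 5.73e-10), and between 4.71 and 5.93 under the alternatives tried. Without GAG-1103P A it came second, with 5.41 against 5.61 for WRKY75_2.

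WRKY70_1 (Vv13s0067g03140), whose identifier follows that of WRKY55, differed much less, with 100.6, 126 and 119 FPKM in GAG-41B and 23.4, 28.7 and 29.6 FPKM in GAG-1103P (2.08 ± 0.13). WRKY70_2 (Vv08s0058g01390) stood well above GAG-1103P in the other 4 combinations. It had 594, 612 and 609 FPKM in GAG-41B, 442, 472 and 461 FPKM in GAG-KOB, 474, 491 and 450 FPKM in GAG-3309C, and 277, 293 and 287 FPKM in GAG-17-37, against 147, 145 and 145 FPKM in GAG-1103P. GAG-KOB and GAG-3309C overlapped (-0.04 ± 0.04, adjusted p = 0.492), and all other pairs were apart. WRKY53_1 (Vv16s0050g02510) was at 82.2 ± 6.87 FPKM in GAG-41B and 2.74 ± 0.383 FPKM in GAG-1103P, WRKY53_2 (Vv02s0025g01280) at 126 ± 3.25 and 8.57 ± 0.387 FPKM, and WRKY53_3 (Vv15s0046g01140) at 283 ± 13.3 and 26.2 ± 1.304 FPKM (SD, n = 3 each). Their order in log2 fold change, 4.86, 3.86 and 3.43, ran against their order in level.

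Subgroups IId and IIe have 1 named member each, and these moved in opposite directions. WRKY27_2 (Vv02s0025g00420), named after an Arabidopsis gene that affects bacterial wilt, had 74.6, 75.9 and 74.4 FPKM in GAG-41B and 6.75, 7.24 and 7.17 FPKM in GAG-1103P (3.39 ± 0.07). WRKY21_1 (Vv02s0154g00210) was the only named member lower in GAG-41B. It had 11.9, 8.18 and 7.99 FPKM in GAG-41B, 23.1, 21.6 and 22.1 FPKM in GAG-KOB, and 36.1, 45.9 and 33.6 FPKM in GAG-3309C. GAG-17-37 had 45.1, 39.2 and 36.0 FPKM and GAG-1103P 40.6, 43.1 and 33.4 FPKM. The last 3 combinations overlapped, with GAG-KOB below them and GAG-41B below GAG-KOB. The log2 fold change was -2.07 ± 0.16 in GAG-41B (adjusted p = 8.75e-08) and -0.80 ± 0.16 in GAG-KOB (0.000969), the largest decrease of any called member in both. With 1 added in place of 0.1 the value in GAG-41B was -1.96, under the 4-fold limit.

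**Figure D4:**
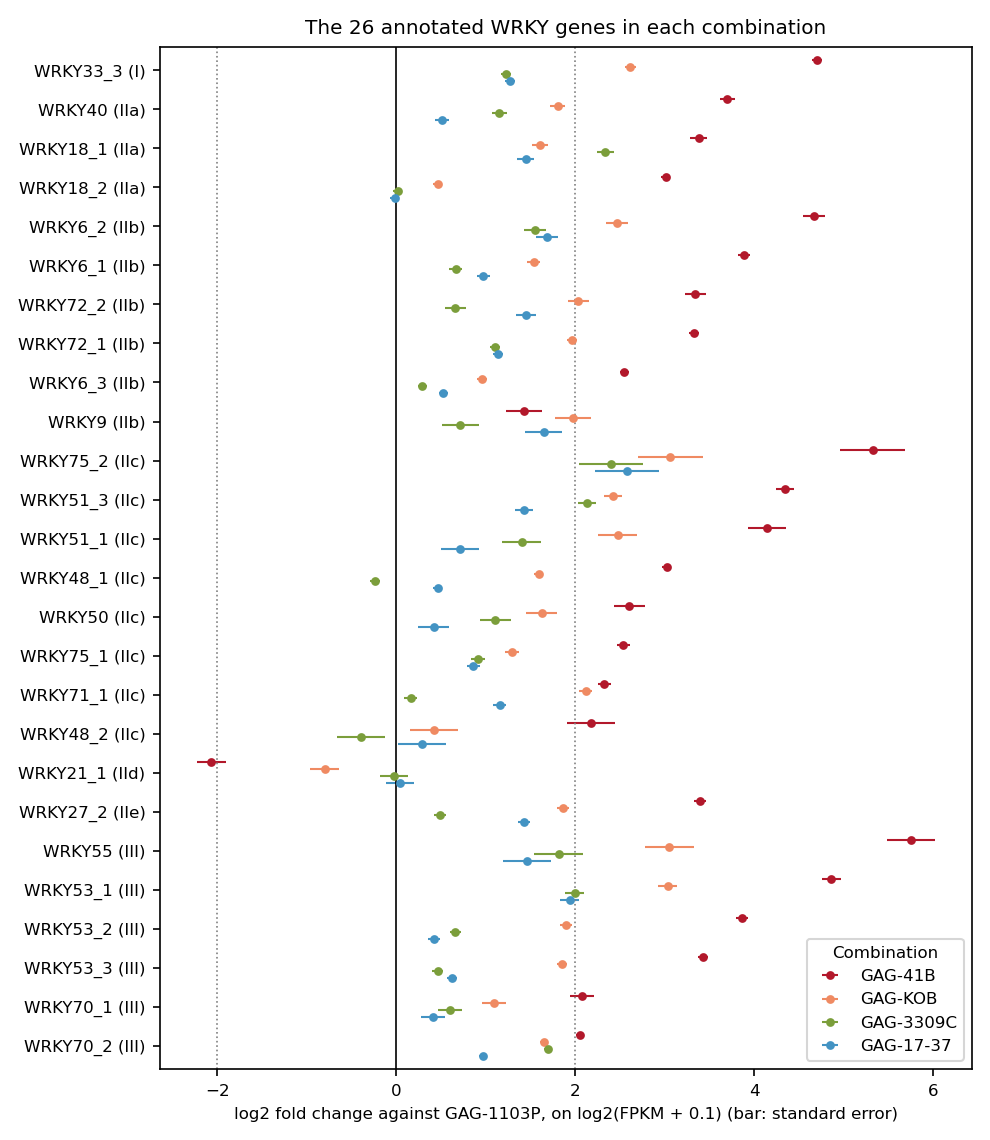
Points give the log2 fold change against GAG-1103P of the 26 named WRKY genes and bars the standard error, in 4 colours for the 4 combinations, with dotted lines at a 4-fold change. The GAG-41B point is the farthest right for 24 of the 26, the others being WRKY9, where GAG-KOB leads, and WRKY21_1, where GAG-41B lies at -2.07.

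Of the 28 members with no name, 27 were tested. Since names went to genes with large changes in these libraries, the lack of 4-fold changes against GAG-1103P among the unnamed members was fixed by that selection. In GAG-41B 13 were called higher, 8 lower and 6 neither (77.8% called, against 68.8% of all genes). In GAG-17-37 10 were higher, 1 lower and 16 neither, and the 40.7% called were near the 34.3% of all genes. The largest increases in GAG-41B were those of Vv06s0004g07500 (1.93 ± 0.04), Vv10s0003g01600 (1.85 ± 0.06) and Vv04s0069g00920 (1.76 ± 0.15), and all 3 were higher in every comparison. Vv06s0004g07500 had 1216, 1321 and 1278 FPKM in GAG-41B, 608, 624 and 587 FPKM in GAG-KOB, and 327, 334 and 339 FPKM in GAG-1103P. The replicates of these combinations were far apart, as were those of Vv10s0003g01600, with 439, 404 and 413 FPKM in GAG-41B and 118, 118 and 111 FPKM in GAG-1103P. Vv04s0069g00920 had 498, 377 and 383 FPKM in GAG-41B and 140, 118 and 112 FPKM in GAG-1103P, with library A highest in all 5 combinations.

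Decreases were fewer and smaller. Vv01s0011g00220 had 4.90, 5.98 and 5.79 FPKM in GAG-41B and 13.9, 13.8 and 11.7 FPKM in GAG-1103P (-1.23 ± 0.10). Vv07s0031g01840 had 6.16, 6.64 and 5.70 FPKM in GAG-41B and 14.2, 12.9 and 13.4 FPKM in GAG-1103P (-1.12 ± 0.11), with no call in the other 3 combinations. Vv11s0037g00150 was called lower in all 4 comparisons, which share the GAG-1103P libraries. It had 21.5, 24.8 and 23.1 FPKM in GAG-41B, 32.04, 29.9 and 30.6 FPKM in GAG-KOB, and 37.4, 39.4 and 38.6 FPKM in GAG-3309C. GAG-17-37 had 31.95, 35.6 and 36.9 FPKM and GAG-1103P 48.6, 51.0 and 50.7 FPKM, so that every GAG-1103P library was above all 12 others. The decrease was -1.11 ± 0.06 in GAG-41B and -0.52 ± 0.06 in GAG-17-37 (adjusted p = 3.92e-05), the only one called there without the block. Vv04s0023g00470 gave the largest decrease in GAG-3309C (-0.92 ± 0.20, adjusted p = 0.0022), with 1.01, 1.504 and 1.34 FPKM in GAG-3309C and 2.55, 2.27 and 2.67 FPKM in GAG-1103P.

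Of the 53 members, 25 were called higher in all 4 comparisons (47.2%, against 11.8% of all genes), with the GAG-1103P libraries shared by all 4. Among the 25, Vv07s0005g02570 and Vv17s0000g01280 changed sign in GAG-41B with the same FPKM total in every library, the first also under quantile normalization. In opposite directions in different comparisons, 5 members were called (9.43%, near the 8.21% of all genes). Besides WRKY48_1 these were Vv07s0005g01520, Vv07s0005g01710, Vv14s0108g00120 and Vv18s0001g10030. Vv07s0005g01520 had 79.2, 78.8 and 78.8 FPKM in GAG-41B, 132, 145 and 136 FPKM in GAG-17-37, and 110, 116 and 103 FPKM in GAG-1103P, which was -0.47 ± 0.08 for GAG-41B and 0.33 ± 0.08 for GAG-17-37. Vv18s0001g10030 had 17.2, 14.4 and 14.2 FPKM in GAG-41B, 7.22, 6.29 and 5.66 FPKM in GAG-3309C, and 10.3, 10.3 and 9.08 FPKM in GAG-1103P, higher in the first and lower in the second. Vv04s0069g00980 and Vv10s0003g05740 were called in none of the 4, and Vv10s0003g05740 was lower in GAG-41B with the library letter as a block (-0.32, adjusted p = 0.0361). Unnamed members given in this paragraph and in the comparison of GAG-3309C with GAG-17-37 were mostly chosen after their values were seen.

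GAG-41B also stood apart from the combinations other than GAG-1103P. Against GAG-KOB 31 members were higher and 10 lower (77.4% called, against 53.2% of all genes). The counts were 38 and 12 against GAG-3309C (94.3% called, 63.1% of all genes) and 35 and 11 against GAG-17-37 (86.8%, and 62.5% of all genes). Each of these 3 counts of higher members includes Vv04s0069g00980, which passed the filter mainly through GAG-41B libraries and was at 0 in all libraries of the other 3 combinations. Without it, a choice made after its values were seen, they were 30, 37 and 34. Against the mean of the other 4 combinations 35 were higher and 12 lower (68.0% of all genes were called), and 20 were at least 4-fold higher (5.21% of all genes), or 34 and 19 without Vv04s0069g00980. GAG-1103P was lower than the mean of the other 4 for 36 members and higher for 8 (58.9% of all genes were called), and 8 of the 36 were at least 4-fold lower (2.79%). GAG-KOB had 31 members higher and 8 lower than GAG-3309C (34.9% of all genes were called), and 29 higher and 3 lower than GAG-17-37 (33.3%).

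GAG-3309C and GAG-17-37 were closest, with 8 members higher in GAG-3309C, 9 lower and 36 not called (32.1% called, against 16.9% of all genes). With the library letter as a block, which lost none of these calls, 12 were higher and 13 lower. The members listed next are those called without the block. Higher in GAG-3309C were WRKY18_1 (0.89), WRKY70_2 (0.72), WRKY51_3 (0.70), WRKY50 and WRKY51_1 (0.69 each), WRKY40 (0.64), Vv10s0003g01600 (0.32) and WRKY53_2 (0.24). Lower in GAG-3309C were WRKY71_1 (-0.997), WRKY27_2 and WRKY9 (-0.93 each), WRKY72_2 (-0.79), Vv18s0001g10030 (-0.72), WRKY48_1 (-0.70), Vv12s0028g00270 (-0.41), WRKY6_1 (-0.31) and WRKY6_3 (-0.23). The 4 IIb members called here (WRKY6_1, WRKY6_3, WRKY9 and WRKY72_2) were all on the lower side. The named IIb members WRKY72_1 (-0.03) and WRKY6_2 (-0.13) were not called, and the direction within a subgroup was not tested.

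Genes that stand near WRKY factors in defence signalling were counted from the lists of the study, which chose them for their change in these libraries, so that the counts are a description and were largely fixed by that choice. Of 56 genes of its plant-pathogen interaction network, 51 were higher and 4 lower in GAG-41B than in GAG-1103P (34.4% and 34.4% of all genes), with a median log2 fold change of 2.87, and in GAG-KOB 49 were higher and 2 lower (26.9% and 25.7%). The network had 38 genes higher and 2 lower in GAG-3309C (22.0% and 21.1%), and 40 and 2 in GAG-17-37 (18.6% and 15.6%). A list of 7 genes of mitogen-activated protein kinase signalling holds 5 kinase genes, a kinase substrate and a phosphatase. A gene for MPK3 (Vv06s0004g03540), the kinase that acts on WRKY33 in Arabidopsis, was higher by 3.19 ± 0.07 in GAG-41B, 1.09 in GAG-KOB and 0.28 in GAG-17-37, and was not called in GAG-3309C (0.098, adjusted p = 0.323). The other 4 kinase genes were higher in every comparison. The substrate MKS1 (Vv01s0011g03650), which in Arabidopsis links MPK4 to WRKY33, was higher in all 4 too, by 4.96 ± 0.20 in GAG-41B and by 1.29 in GAG-3309C. The MAP kinase phosphatase (Vv07s0185g00130) was lower in GAG-41B (-3.40 ± 0.08) and GAG-KOB (-0.87), higher in GAG-3309C (0.26, adjusted p = 0.0218) and not called in GAG-17-37 (-0.11, adjusted p = 0.348). All 6 genes for EDS1 and SAG101, partners in immunity upstream of salicylic acid, were higher in GAG-41B, with a median of 2.61, and in GAG-KOB, while 5 were higher in GAG-3309C and 4 in GAG-17-37. The study annotates 3 genes as MYB14, the name of a regulator of stilbene synthase in grapevine, and the shared name does not show that each is this regulator. They were higher by 3.11 to 4.14 in GAG-41B and by 1.13 to 1.77 in GAG-KOB. In GAG-3309C 2 of them were higher and Vv12s0134g00490 was lower (-0.90, adjusted p = 0.0253), and in GAG-17-37 2 were higher. WRKY11_1 (Vv11s0052g00450) and WRKY49 (Vv08s0007g00570), annotated as WRKY genes by the study but not among the 54, were higher in GAG-41B by 2.95 ± 0.19 and 3.11 ± 0.15 and were not called in GAG-3309C.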

How the data were processed

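Leaf RNA of 15 libraries, 3 for each of 5 graft combinations, had been sequenced by the authors, and combination and letter were taken from the labels. According to the methods and submitters' notes, the authors used CASAVA 1.8.2, TopHat2 2.0.14 with Bowtie2 2.2.4 on the PN40024 genome, and Cufflinks 2.2.0 with geometric normalization to make the deposited FPKM values. The authors name DESeq 1.6.3 for differential expression. DESeq was not used here, since FPKM values are not counts. Depth per gene is unknown. All 15 columns were matched by name and 0 were left over. The filter kept 21364 of 29970 genes, those averaging 0.1 FPKM or more, and limma 3.58.1 (R 4.3.3) was run on log2(FPKM + 0.1). The fit had a mean for each combination and a variance trend, and two-sided p-values were Benjamini-Hochberg adjusted over all genes tested. A 4-fold change is a called log2 fold change of at least 2. The fit was also run on simulated data with independent libraries. That setting lacks the step shared by the A libraries, so the run does not bear on it. Plots were drawn with matplotlib 3.10.9.

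With 3 libraries against 3, an exact permutation test of 1 gene cannot go below p = 0.1. The p-values measure the spread between pools of leaves. Same-lettered libraries deviated together: over the tested genes, the rank correlation of their deviations from the combination means was 0.260 to 0.385 for A, 0.103 to 0.212 for B and 0.151 to 0.213 for C. All 30 pairs were above 0.1, by rank; Pearson's r, which single genes listed at 0 in 1 library can move, was above 0.1 in 2 of them. Pairs of a B with a C library were also above 0.1 in 19 of 20 cases (up to 0.225), while those of A with B or C were all below 0. By rank 11 of 15 libraries were closest to their own letter, and by Pearson's r 5. The values thus set A apart from B and C more than they tie each letter. A fit with the letter as a block was made; the labels do not say what the letters share. The members, gene lists, comparisons and alternatives were chosen with earlier results of these data known. Named are the members with a name in the study, those at the ends of each comparison (mean of at least 1 FPKM), the 3 largest changes in each direction among unnamed members in GAG-41B, those with consecutive identifiers, those at the ends of the level range, and those not tested. None of the identifiers matched the reference gene table at hand, of another assembly, so that no coordinates or sequences are given.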

Additional observations from a re-analysis of the deposited data

How the results depend on the processing

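The counts and a set of single-gene values were recomputed under alternatives. These were 1 or 0.01 added in place of 0.1, no filter or one at 1 FPKM, and no variance trend. The libraries were also scaled to the same total, the same median or by quantiles. A replicate block, an adjusted p of 0.005 and leaving out each library were tried too. For the counts, 637 values stayed within 1.5 times of the main value and 13 moved. The single-gene values covered WRKY18_2, WRKY40 and the largest changes of each comparison with GAG-1103P. For GAG-41B they also covered the named members and the unnamed ones with the largest changes. Of these values, 1094 kept their sign and their side of the adjusted p threshold, and 5, all of the uncalled WRKY18_2, changed sign. Other calls are not in this tally, and some were lost. In GAG-3309C these included WRKY48_1 with the same total and WRKY9 with quantiles. In GAG-17-37 they included WRKY70_1 with the same median and WRKY51_1 with quantiles. In GAG-17-37 the WRKY18_2 value was 0.053 with the same total and 0.022 with quantiles, and -0.041 to 0.016 with libraries left out. In GAG-3309C it was -0.0075 to 0.062 with libraries left out. The single 4-fold member of GAG-17-37 became 0 with 1 added and 2 with the same total, and 1 to 2 with libraries left out (2 without GAG-1103P C or GAG-17-37 A). The single lower member of GAG-17-37 became 3 with quantiles, 3 with the replicate block, and 1 to 2 with libraries left out (2 without GAG-41B A, GAG-41B B or GAG-17-37 C). The 9 lower members of GAG-41B became 15 with the same total. There, Vv07s0005g02570 and Vv17s0000g01280 changed sign, and 5 calls were lost. At an adjusted p of 0.005 the 5 lower members of GAG-KOB became 3, and the 17 called between GAG-3309C and GAG-17-37 became 11. The 3 members at least 4-fold higher in GAG-3309C were 3 to 5 with libraries left out (5 without GAG-3309C A). The causes were not tested. The replicate block lost 0 of the members' calls and changed no direction, and it added calls in 10 of the 12 comparisons, 8 of them between GAG-3309C and GAG-17-37. Depth per gene cannot be read from FPKM, so that members under 1 FPKM (WRKY9, Vv14s0108g00120, Vv15s0046g02150 and Vv04s0069g00980) have the least certain values.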
